A study of Arabidopsis thaliana with 24 samples.

Results

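Coumarins are phenolic compounds that Arabidopsis roots make from the phenylpropanoid route and release into the soil, where catechol forms mobilize iron and shape the root microbiota. Feruloyl-CoA 6'-hydroxylase (F6'H1) commits feruloyl-CoA to the scopoletin branch, coumarin synthase (COSY) closes the ring, scopoletin 8-hydroxylase (S8H) makes fraxetin, and the cytochrome P450 CYP82C4 oxidizes fraxetin to sideretin. The beta-glucosidase BGLU42 frees coumarins from their glucosides, the pump ABCG37 (PDR9) exports them, and the transcription factor MYB72 drives BGLU42 and coumarin secretion in iron-starved or bacteria-colonized roots. These 7 genes were taken by gene ID from a table of 24497 genes in which all 7 were found, and 5 of the 7 passed the filter on low counts. They had been picked with results from the same libraries known, among them the low F6'H1 of wild type on spectinomycin, so the wild-type response, and F6'H1 in each altered genotype against wild type, are described here without a test. The comparisons of the other members with wild type share the same libraries, and their adjusted p-values are given as a description. Which other values guided the choice is not stated, so the other adjusted p-values are a description too.

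The libraries were made from poly(A) RNA of the outer 0.5 cm or so of Arabidopsis thaliana roots, taken from seedlings that had grown for about 5 days before transfer to spectinomycin at 10 mg/L, which stops plastid ribosomes, or that served as controls. The genotypes were wild type Col (WT), gun1-101, a mutant of the plastid signalling gene GUN1, nac103-11, a mutant of the transcription factor gene NAC103, and 35S:NAC103-GFP (NAC103-OX), in which the 35S promoter, active in most cell types, drives a NAC103-GFP fusion. Each of the 8 groups of genotype and medium held 3 libraries that the labels call biological replications. The time on spectinomycin is 16 h in one label and 24 h in another. Libraries held 13012580 to 17411876 expected counts. Levels are CPM, counts scaled to the TMM-normalized library size. Log2 fold changes are given ± SE, and adjusted p-values are those of the edgeR quasi-likelihood test after Benjamini-Hochberg adjustment over 19567 genes, with calls made below 0.05. Where groups are said not to overlap, the share of all genes separated in that way was not counted. GUN1 stood at 85.8 and 78.6 CPM in gun1-101 on control and spectinomycin medium, against 148 and 141 CPM in WT. NAC103 stood at 17.4 and 20.1 CPM in NAC103-OX and at 0.764 and 0.558 CPM in WT, and in nac103-11 at 0.617 and 0.0804 CPM. The labels' batch tag has 1 value per group, so batch and group cannot be told apart. WT control replicate 2 stood apart from both other libraries of its group (chi-square per degree of freedom of at least 8.64, where the lowest within-group value was 1.74), and leaving it out changed no member's call.

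The 250 bases before the start of F6'H1, CYP82C4 and ABCG37 are shown because F6'H1 spanned the widest range, the counts of CYP82C4 lay mostly in gun1-101, and ABCG37 varied least. They are RefSeq sequence of the TAIR10.1 build, on the plus strand, at chr3:4449009-4449258, chr4:15451738-15451987 and chr3:19825017-19825266, and each ends at the base before the annotated gene. Capitals mark TTGAC, the core of the W-box bound by WRKY factors, on either strand.
F6'H1: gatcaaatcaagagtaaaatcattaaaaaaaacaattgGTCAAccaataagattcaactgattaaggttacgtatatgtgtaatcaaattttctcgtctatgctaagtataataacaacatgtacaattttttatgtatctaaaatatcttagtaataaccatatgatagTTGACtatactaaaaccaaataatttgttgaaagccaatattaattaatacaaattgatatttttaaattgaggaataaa
CYP82C4: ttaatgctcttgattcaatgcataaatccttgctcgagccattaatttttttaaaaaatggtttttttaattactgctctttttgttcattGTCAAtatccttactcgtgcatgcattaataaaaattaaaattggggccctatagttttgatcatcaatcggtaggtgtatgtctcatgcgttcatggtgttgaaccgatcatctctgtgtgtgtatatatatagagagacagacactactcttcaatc
ABCG37: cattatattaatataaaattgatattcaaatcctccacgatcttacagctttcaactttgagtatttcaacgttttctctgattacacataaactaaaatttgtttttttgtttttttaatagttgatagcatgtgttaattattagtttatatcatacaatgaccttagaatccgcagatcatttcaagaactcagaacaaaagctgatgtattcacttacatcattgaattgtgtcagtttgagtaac
TTGAC occurred in 3 of the 7 windows of this kind, as in 44.9% of 27443 windows of the same length before annotated genes. F6'H1 held 2 matches, starting 80 and 212 bases upstream, COSY 1 match 106 bases upstream, and CYP82C4 1 match 159 bases upstream. ABCG37, BGLU42, S8H and MYB72 held none in this window. The letters CACGTG, the G-box, were in none of the 7 windows and in 6.49% of all windows. CANNTG, the E-box, which takes in the G-box, was in 3 of 7 windows against 55.3% of all. TCATCG, the letters of the element UPRE-III, was in that of BGLU42 alone, against 6.45% of all.

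MYB72 (AT1G56160), the regulator of the group, was close to undetected. It had 1 count in all 24 libraries together, in gun1-101 control replicate 3. With a floor of 3 counts, its level in a library was under 0.161 to 0.258 CPM, depending on depth. Its gene overlaps an antisense gene over 68.9% of its length, and whether the authors counted by strand is not given in the sources used here.

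F6'H1 (AT3G13610) covered a wider range than any other member detected in all libraries, with a mean of 1092 ± 26.5 CPM (SD, n = 3) in gun1-101 on control medium and of 6.22 ± 0.106 CPM in NAC103-OX on spectinomycin, a ratio of 176. In WT the control libraries stood at 636, 579 and 618 CPM, and the spectinomycin libraries at 18.1, 20.5 and 19.4 CPM. The log2 fold change was -4.98 ± 0.057, the 44th lowest of the 19567 genes. In bulk root tips, fewer cells with the transcript and less transcript per cell cannot be told apart.

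The fall of F6'H1 on spectinomycin was small in gun1-101. Its control libraries stood at 1097, 1063 and 1116 CPM and its spectinomycin libraries at 911, 914 and 912 CPM, and the groups did not overlap. The log2 fold change was -0.26 ± 0.044 (adjusted p = 3.06e-05). In nac103-11 the control libraries stood at 730, 670 and 637 CPM and the spectinomycin libraries at 177, 166 and 170 CPM. F6'H1 fell there by 1.99 ± 0.047 on the log2 scale (adjusted p = 2.61e-32), which left it above every WT library on spectinomycin.

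In NAC103-OX, F6'H1 was low on either medium. Its control libraries stood at 7.39, 7.19 and 6.80 CPM and its spectinomycin libraries at 6.10, 6.29 and 6.27 CPM. The libraries did not overlap, but the log2 fold change of -0.20 ± 0.099 was not called (adjusted p = 0.324). F6'H1 fell further in nac103-11 than in the other altered genotypes, with a log2 difference of responses, gun1-101 minus nac103-11, of 1.73 ± 0.063 (adjusted p = 1.92e-24). The same difference for NAC103-OX minus nac103-11 was 1.79 ± 0.11 (adjusted p = 3.34e-17). Between gun1-101 and NAC103-OX the log2 difference of responses was -0.06 ± 0.11 (adjusted p = 0.833). The WT response was the lowest of the 4, and subtracting it gave 4.72 ± 0.072 for gun1-101, 2.99 ± 0.072 for nac103-11 and 4.78 ± 0.12 for NAC103-OX in log2 units, as a description with no test.

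On either medium the F6'H1 libraries of the 3 altered genotypes did not overlap those of WT. Over all genes, 16.8% (NAC103-OX on spectinomycin) to 57% (gun1-101 on spectinomycin) were called in these comparisons. The comparisons with WT share the WT libraries, whose F6'H1 values were known when the genes were picked, so they carry no test for F6'H1. On control medium gun1-101 stood above WT by 0.84 ± 0.044 log2 units. NAC103-OX stood at a log2 fold change of -6.42 ± 0.066 against WT, the 15th lowest of all genes tested. The nac103-11 value was 0.15 ± 0.044, and 0.10 to 0.20 with 1 library left out. On spectinomycin the log2 fold changes against WT were 5.56 ± 0.058 in gun1-101, 3.14 ± 0.056 in nac103-11 and -1.64 ± 0.081 in NAC103-OX.

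In falling order of mean F6'H1, the groups were gun1-101 control, gun1-101 spectinomycin, nac103-11 control, WT control, nac103-11 spectinomycin, WT spectinomycin, NAC103-OX control and NAC103-OX spectinomycin. No neighbours in this order shared a range of library values. F6'H1 overlaps the neighbouring gene AT3G13620 on the opposite strand over 67 bases, 4.31% of its length.

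**Figure D1:**
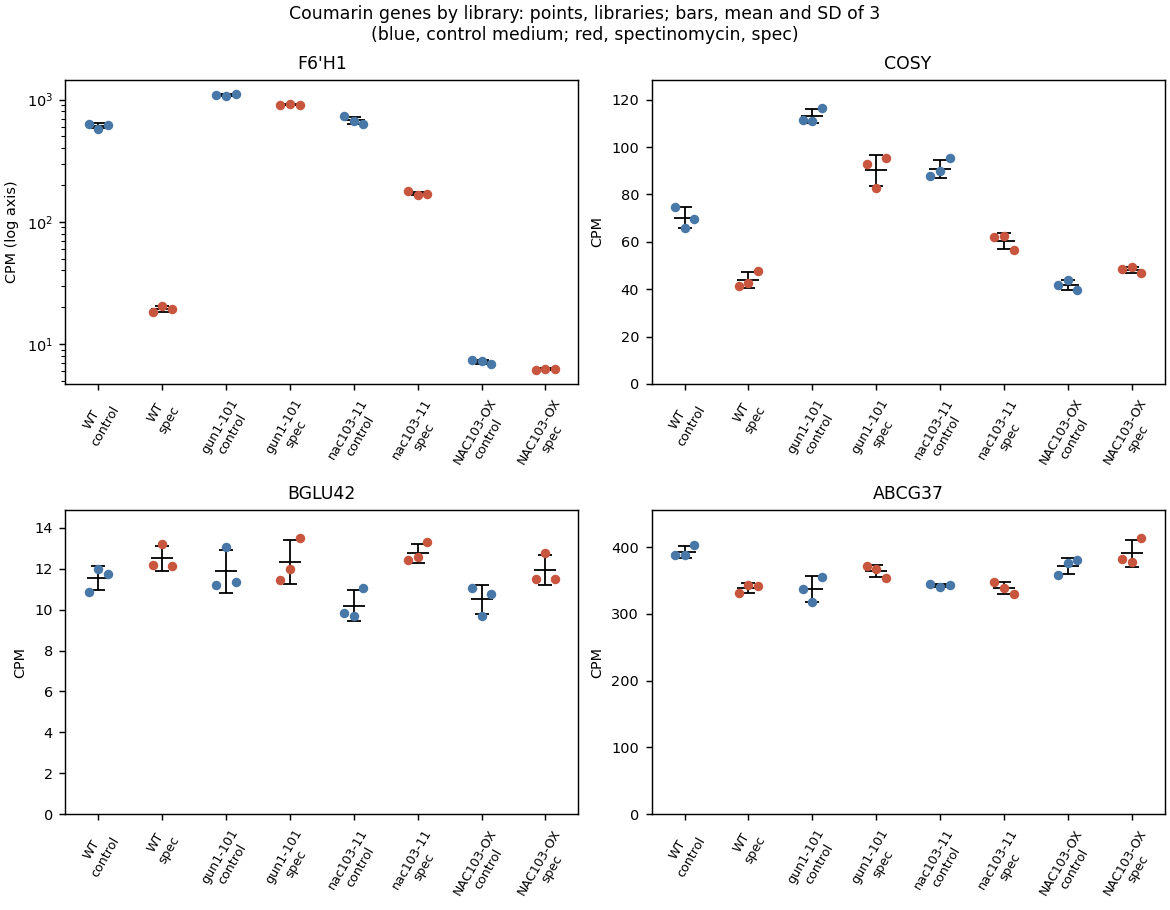
CPM of F6'H1 (log axis), COSY, BGLU42 and ABCG37 (linear axes from 0) in each library, by genotype and medium. Points are the 3 libraries of a group and bars the mean ± SD. F6'H1 runs from 6.10 to 1116 CPM, while ABCG37 stays between 318 and 414 CPM.

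COSY (AT1G28680), which closes the coumarin ring, moved in the same direction as F6'H1 in gun1-101 and nac103-11 and over a narrower range. In WT its control libraries stood at 74.8, 65.8 and 69.8 CPM and its spectinomycin libraries at 41.3, 42.5 and 47.7 CPM. These groups did not overlap, and the log2 fold change was -0.67 ± 0.060. In gun1-101 the libraries stood at 111, 111 and 117 CPM on control medium and at 92.6, 82.8 and 95.2 CPM on spectinomycin. COSY fell there by 0.33 ± 0.057 log2 units (adjusted p = 4.82e-05).

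In nac103-11 the control libraries stood at 87.6, 89.7 and 95.2 CPM and the spectinomycin libraries at 61.9, 62.4 and 56.4 CPM. COSY fell there by 0.59 ± 0.058 log2 units (adjusted p = 1.21e-11), with no overlap of the groups. In NAC103-OX the order was the other way round, with control libraries at 41.6, 43.8 and 39.5 CPM and spectinomycin libraries at 48.5, 49.2 and 46.6 CPM. This rise, of 0.21 ± 0.063 log2 units (adjusted p = 0.0424), was lost with DESeq2 (adjusted p = 0.0637) and in 5 of the 6 fits that left out 1 NAC103-OX library (adjusted p up to 0.170); it held without NAC103-OX control replicate 2.

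The COSY response of NAC103-OX was above that of nac103-11 by 0.80 ± 0.086 log2 units (adjusted p = 3.21e-10), and that of gun1-101 was below that of NAC103-OX, with a log2 difference of -0.53 ± 0.085 (adjusted p = 2.95e-05). The gun1-101 response was above that of nac103-11 by 0.27 ± 0.081 (adjusted p = 0.0114), a call lost without nac103-11 spectinomycin replicate 3 (adjusted p = 0.0556). On control medium COSY was higher than in WT in gun1-101, by 0.69 ± 0.057 log2 units (adjusted p = 1.03e-13), and in nac103-11, by 0.37 ± 0.058 (adjusted p = 8.35e-07). It was lower in NAC103-OX, with a log2 fold change of -0.75 ± 0.062 (adjusted p = 6.02e-14). On spectinomycin it was above WT by 1.04 ± 0.060 in gun1-101 (adjusted p = 3.04e-19) and by 0.45 ± 0.061 in nac103-11 (adjusted p = 8.46e-08). The NAC103-OX value of 0.13 ± 0.062 was not called (adjusted p = 0.150) but passed without WT spectinomycin replicate 3 (adjusted p = 0.0468). These comparisons of COSY with WT share the WT libraries known when the genes were picked, and their adjusted p-values are a description.

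In the order of mean COSY, nac103-11 control and gun1-101 spectinomycin overlapped, as did neighbours among the 3 lowest groups, NAC103-OX spectinomycin, WT spectinomycin and NAC103-OX control. An antisense non-coding gene, AT1G28685, covers 84.5% of COSY and is not a row of the table. Without strand, reads of the 2 genes cannot be told apart.

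S8H (AT3G12900) and CYP82C4 (AT4G31940), which act downstream of COSY, were rare, and their counts lay mainly in gun1-101. S8H had 2, 3 and 2 counts in the gun1-101 control libraries, 2, 2 and 4 in the gun1-101 spectinomycin libraries, and 0 in the other 18 libraries. It missed the filter and was not tested. Taking 3 counts over a group as the floor for WT, S8H in gun1-101 stood at 2.96 times that floor on control medium. On spectinomycin it stood at 3.25 times the floor. Between the 2 media of gun1-101 the ratio, control over spectinomycin, was 0.988, with an exact (Clopper-Pearson) 95% interval of 0.305 to 3.12. Intervals cover counting error only, and a ratio to a floor leaves out the counting error of the gun1-101 counts.

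CYP82C4 had 12, 19 and 11 counts in the gun1-101 control libraries and 6, 8 and 6 in its spectinomycin libraries. The other 18 libraries held 7 counts together, 2 of them in WT on control medium, 3 in nac103-11 on control medium and 2 in nac103-11 on spectinomycin. It passed the filter on low counts only through the gun1-101 control libraries, so its values are a description with no test. The ratio of gun1-101 to WT on control medium was 26.7, with an exact 95% interval of 6.94 to 227. Against WT on spectinomycin, where all 3 libraries held 0, gun1-101 stood at 8.14 times the floor of 3 counts over the group. The ratio of control to spectinomycin medium within gun1-101 was 2.37, with an exact 95% interval of 1.36 to 4.26.

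CYP82C4 has close copies next to it, and its reads may be shared with theirs. CYP82C2 (AT4G31970), a P450 of indole defence compounds, had 16302 counts over the 3 gun1-101 control libraries and 13229 over the spectinomycin libraries. It had 1239 and 226 in nac103-11, 295 and 5 in WT, and 8 and 3 in NAC103-OX. CYP82C3 (AT4G31950) had 116 and 113 counts in gun1-101, 15 and 6 in nac103-11, 0 and 1 in WT and 0 in all NAC103-OX libraries. The 3 copies were all highest in gun1-101, and the part of shared reads in the CYP82C4 counts was not tested.

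**Figure D2:**
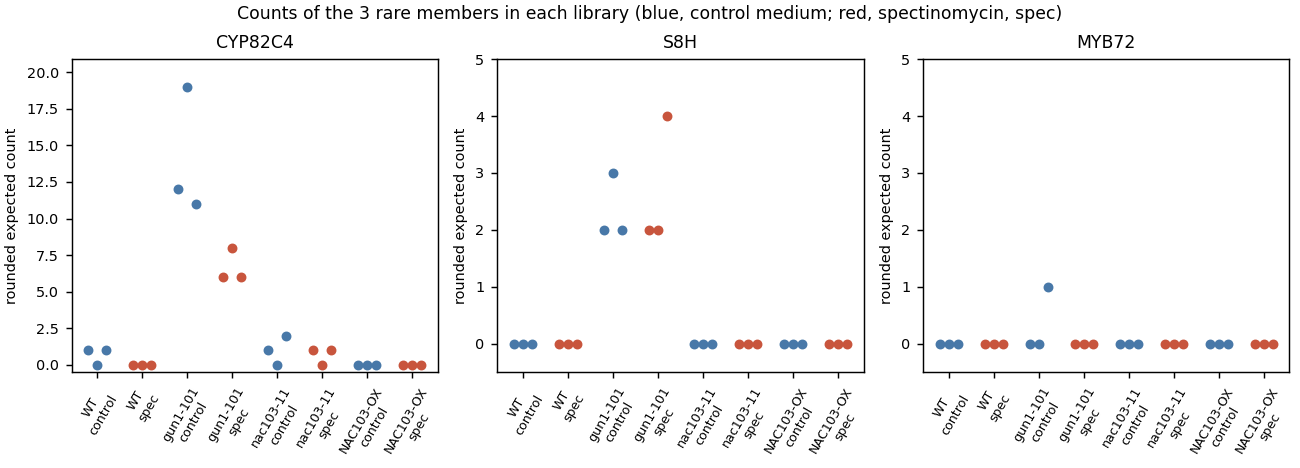
Rounded expected counts of CYP82C4, S8H and MYB72 in each of the 24 libraries, on linear axes, with 1 point per library. CYP82C4 reaches 19 counts and S8H 4 counts, both in gun1-101, and MYB72 has 1 count in all.

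BGLU42 (AT5G36890), which releases coumarins from glucosides, varied little. Its libraries ranged from 9.67 to 13.5 CPM, and every group overlapped its neighbour in the order of means. In nac103-11 it stood at 9.82, 9.67 and 11.1 CPM on control medium and at 12.4, 12.6 and 13.3 CPM on spectinomycin, groups that did not overlap. It rose there by 0.32 ± 0.095 log2 units (adjusted p = 0.00492). Its other 11 comparisons were not called.

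ABCG37 (AT3G53480), the exporter, stayed between 318 and 414 CPM in all 24 libraries. In WT the control libraries stood at 388, 388 and 403 CPM and the spectinomycin libraries at 331, 343 and 342 CPM, without overlap, and the log2 fold change was -0.21 ± 0.043. Its responses were 0.11 ± 0.044 in gun1-101 (adjusted p = 0.0938), -0.02 ± 0.043 in nac103-11 (adjusted p = 0.780) and 0.07 ± 0.043 in NAC103-OX (adjusted p = 0.354). The gun1-101 value passed in a fit of its 2 groups alone (adjusted p = 0.0188) and without gun1-101 control replicate 3 (adjusted p = 0.0378).

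On control medium ABCG37 was lower than in WT in gun1-101, by a log2 fold change of -0.22 ± 0.044 (adjusted p = 5.51e-05), and in nac103-11, by -0.20 ± 0.043 (adjusted p = 2.41e-04). On spectinomycin ABCG37 was above WT in NAC103-OX, by 0.21 ± 0.043 (adjusted p = 4.68e-04), and in gun1-101, by 0.11 ± 0.043 (adjusted p = 0.0339), the latter not called in 4 of 6 fits without 1 library (adjusted p up to 0.120). As for COSY, the adjusted p-values against WT are a description.

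**Figure D3:**
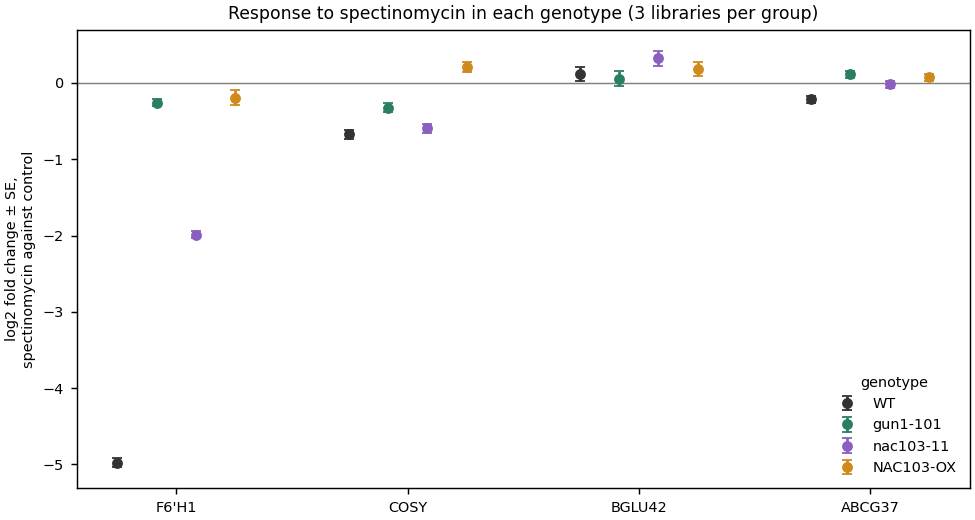
Log2 fold change ± SE of F6'H1, COSY, BGLU42 and ABCG37 on spectinomycin against control medium in each genotype, 3 libraries per group. F6'H1 lies at -4.98 in WT and -1.99 in nac103-11, and at -0.26 and -0.20 in gun1-101 and NAC103-OX.

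Counted over the 5 members tested, 3 fell and none rose in gun1-101, where 11.2% of all genes were called, 7.96% lower and 3.22% higher. In nac103-11, 2 fell and 1 rose, against 44.8% of all genes called, 23.4% lower and 21.4% higher. In NAC103-OX 1 rose and none fell, against 5.06%, 2.24% higher and 2.82% lower. In the differences of responses, 2 were called for gun1-101 minus nac103-11, against 25.5% of all genes, 2 for NAC103-OX minus nac103-11, against 31.5%, and 1 for gun1-101 minus NAC103-OX, against 5.37%. On control medium 4 differed from WT in gun1-101 (40.5% of all genes called), 3 in nac103-11 (43.3%) and 2 in NAC103-OX (45.3%). On spectinomycin 4 differed in gun1-101 (57% of all genes called), 2 in nac103-11 (26.6%) and 2 in NAC103-OX (16.8%). The counts include F6'H1 in every comparison with WT, and CYP82C4 in the gun1-101 response and in both gun1-101 comparisons with WT, which are given above without a test. They are a description and support nothing about the group.

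On the length-scaled TPM of the authors, which allows levels of different genes to be compared, F6'H1 made up 77.2% of the summed level of the 7 members in WT on control medium, at 637 ± 27.8 of 825 TPM. On spectinomycin it stood at 21.4 of 178 TPM, with its 3 libraries between 20.1 and 22.5 TPM. In gun1-101 the share of F6'H1 was 84.0% and 82.5%, of sums of 1194 and 1062 TPM. In nac103-11 it was 78.4% and 52.2%, of 831 and 349 TPM. In NAC103-OX it was 4.62% and 3.75%, of 164 and 183 TPM, and ABCG37 was there the main member, with 65.0% and 63.6%. ABCG37 had 13.4% in WT on control medium and 56.6% on spectinomycin. The shares moved mainly with F6'H1, since the TPM of ABCG37 itself stood at 110 ± 1.49 and 101 ± 1.61 in WT.

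**Figure D4:**
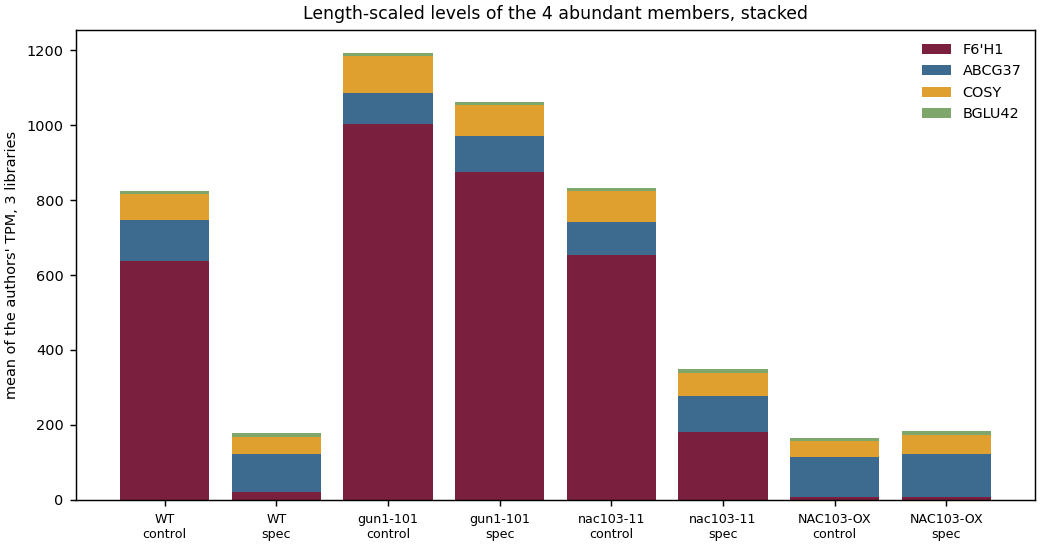
Mean TPM of the 4 abundant members stacked by group, on a linear axis from 0, 3 libraries per group. The stack is highest in gun1-101, at 1194 and 1062 TPM in sum, and F6'H1 is nearly missing from both NAC103-OX groups.

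The genes that feed F6'H1 were described from a list of 9 phenylpropanoid entry genes, which make coumaroyl-CoA from phenylalanine. In gun1-101, 6 of 9 fell and none rose, where 11.2% of all genes were called (median log2 fold change -0.21, against -0.01 over all genes). In nac103-11, 4 fell and 1 rose, where 44.8% of all genes were called (median -0.79, against 0.02). In NAC103-OX 1 rose, against 5.06% of all genes (median 0.02, against -0.004). PAL1, a phenylalanine ammonia-lyase, stood at 375 and 127 CPM in WT, 1132 and 863 in gun1-101, 601 and 280 in nac103-11, and 130 and 130 in NAC103-OX. Its log2 fold changes were -0.39 ± 0.043 in gun1-101 (adjusted p = 4.26e-09), -1.10 ± 0.044 in nac103-11 (adjusted p = 3.79e-24) and 0.003 ± 0.047 in NAC103-OX (adjusted p = 0.983). PAL2, its partner, gave -0.20 ± 0.044 (adjusted p = 0.00104), -1.37 ± 0.046 (adjusted p = 7.20e-27) and 0.07 ± 0.050 (adjusted p = 0.465). C4H, cinnamate 4-hydroxylase, gave -0.19 ± 0.039 (adjusted p = 3.80e-04), -0.93 ± 0.039 (adjusted p = 1.70e-23) and 0.01 ± 0.040 (adjusted p = 0.956).

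Of 11 genes of the ester steps and the monolignol branch, 1 rose and 3 fell in gun1-101 (median -0.12, 11.2% of all genes called), 3 rose and 4 fell in nac103-11 (median -0.02, 44.8% of all genes called) and 1 fell in NAC103-OX (median -0.05, 5.06% of all genes called). CSE, caffeoyl shikimate esterase, fell by 0.20 ± 0.053 in gun1-101 (adjusted p = 0.00849) and by 0.48 ± 0.053 in nac103-11 (adjusted p = 6.27e-10), and stood at 0.08 ± 0.055 in NAC103-OX (adjusted p = 0.471). CCOAOMT1, which makes feruloyl-CoA, the substrate of F6'H1, stood at 592 and 392 CPM in WT, 807 and 730 in gun1-101, 598 and 497 in nac103-11, and 381 and 359 in NAC103-OX. F5H1, ferulate 5-hydroxylase of the syringyl lignin branch, rose by 0.75 ± 0.14 in gun1-101 (adjusted p = 2.10e-04) and by 2.59 ± 0.13 in nac103-11 (adjusted p = 6.36e-21), and gave -0.03 ± 0.11 in NAC103-OX (adjusted p = 0.933).

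Of 8 glucosidases and UGT72E glucosyltransferases, 1 rose and 3 fell in gun1-101 (median -0.001, 11.2% of all genes called), and 6 rose and 2 fell in nac103-11 (median 0.48, 44.8% of all genes called). In NAC103-OX 1 rose and 1 fell (median 0.01, 5.06% of all genes called). BGLU46, a monolignol glucosidase, gave -0.27 ± 0.045 in gun1-101 (adjusted p = 3.81e-05), -1.40 ± 0.047 in nac103-11 (adjusted p = 7.40e-27) and -0.02 ± 0.049 in NAC103-OX (adjusted p = 0.866). BGLU45, of the same list, fell in all of them, by 1.12 ± 0.075, 1.01 ± 0.11 and 0.49 ± 0.10 (adjusted p = 2.91e-15, 1.32e-10 and 0.00214). UGT72E2, which glucosylates monolignols, gave 0.55 ± 0.052 (adjusted p = 7.51e-11), 1.49 ± 0.051 (adjusted p = 9.58e-27) and 0.03 ± 0.045 (adjusted p = 0.808). The scopolin glucosidases BGLU21, BGLU22 and BGLU23 rose in nac103-11 by 0.42 ± 0.040, 0.54 ± 0.044 and 1.14 ± 0.086 (adjusted p = 4.06e-12, 5.48e-14 and 1.22e-09). In gun1-101 they gave -0.05 ± 0.041, -0.23 ± 0.046 and 0.26 ± 0.085 (adjusted p = 0.493, 3.25e-04 and 0.0596). In NAC103-OX they gave 0.35 ± 0.039, 0.04 ± 0.043 and -0.005 ± 0.085 (adjusted p = 1.20e-07, 0.660 and 0.985).

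Among 13 tested relatives of ABCG37 in the PDR-type ABCG family, 1 rose and 1 fell in gun1-101 (11.2% of all genes called), 3 rose and 3 fell in nac103-11 (44.8%) and 1 fell in NAC103-OX (5.06%), shares near those over all genes. The medians were -0.13, 0.09 and 0.09. ABCG36 (PEN3), an exporter of defence compounds, gave -0.13 ± 0.043 in gun1-101 (adjusted p = 0.0466), -1.15 ± 0.044 in nac103-11 (adjusted p = 5.62e-25) and -0.13 ± 0.044 in NAC103-OX (adjusted p = 0.0634). F6'H2, the close copy of F6'H1, stayed between 2.08 and 3.52 CPM in all group means, and CYP82C2 gave -0.48 ± 0.056 in gun1-101 (adjusted p = 7.16e-08), -2.70 ± 0.11 in nac103-11 (adjusted p = 7.95e-22) and -1.43 ± 0.88 in NAC103-OX (adjusted p = 0.383).

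Coumarin genes are known to be induced when iron is scarce, and the iron lists are therefore set beside them. FIT, the bHLH factor upstream of F6'H1 in iron-starved roots, stood at 10.5 and 9.38 CPM in WT, 4.86 and 6.51 in gun1-101, 5.51 and 8.46 in nac103-11, and 8.18 and 8.57 in NAC103-OX. Its log2 fold changes were 0.42 ± 0.15 in gun1-101 (adjusted p = 0.0550), 0.61 ± 0.13 in nac103-11 (adjusted p = 1.23e-04) and 0.07 ± 0.12 in NAC103-OX (adjusted p = 0.808). IRT1, the root iron transporter, had group means of 0.896 to 5.21 CPM, and FRO2, the ferric chelate reductase, of 0.768 to 1.41 CPM. Of 17 iron-deficiency regulators, 3 rose in gun1-101 (median 0.07, 11.2% of all genes called), 6 rose and 5 fell in nac103-11 (median 0.15, 44.8% of all genes called), and 1 fell in NAC103-OX (median -0.06, 5.06% of all genes called). Unlike FIT, the listed regulators BTS and BTSL2 fell in nac103-11, by 0.31 ± 0.048 and 0.32 ± 0.053 (adjusted p = 8.67e-07 and 2.98e-06). In gun1-101 and NAC103-OX neither was called. Of 11 iron uptake and distribution genes tested, none was called in gun1-101 (median 0.06), 7 rose and 1 fell in nac103-11 (median 0.35), and 4 fell in NAC103-OX (median -0.16), against the same 11.2%, 44.8% and 5.06% of all genes. NAS1, a nicotianamine synthase, gave 0.48 ± 0.21 in gun1-101 (adjusted p = 0.157), 1.67 ± 0.22 in nac103-11 (adjusted p = 2.02e-08) and 0.03 ± 0.15 in NAC103-OX (adjusted p = 0.954). FRO3 and AHA2, of the same list, gave -0.35 ± 0.067 and 0.18 ± 0.039 in nac103-11 (adjusted p = 6.85e-05 and 1.62e-04). Neither was called in gun1-101 or NAC103-OX. Of 3 ferritin genes, 1 fell in gun1-101, and 1 rose and 1 fell in nac103-11 and in NAC103-OX, against the same shares of all genes. FER1 fell in gun1-101, nac103-11 and NAC103-OX by 0.25 ± 0.065, 0.53 ± 0.058 and 0.28 ± 0.064 (adjusted p = 0.00617, 1.98e-10 and 0.00727). FER3 gave -0.16 ± 0.11, 0.33 ± 0.10 and 0.36 ± 0.097 (adjusted p = 0.407, 0.00927 and 0.0197).

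Genes with a symbol were ranked by how closely their 8 group means of log2 CPM, each centred on its own mean, followed those of a member, measured as a root mean square difference in log2 units over 8518 genes. Nearest to F6'H1 were PROPEP3, the precursor of an elicitor peptide, at 0.40, GSTF6, a glutathione transferase, at 0.42, and MYB15, a defence-related MYB factor, at 0.47. PROPEP3 stood at 25.4 and 0.710 CPM in WT, 92.2 and 81.7 in gun1-101, 53.9 and 10.9 in nac103-11, and 0.403 and 0.311 in NAC103-OX. MYB15 stood at 61.8 and 2.28 CPM in WT, 259 and 210 in gun1-101, 150 and 41.4 in nac103-11, and 1.45 and 1.48 in NAC103-OX. Nearest to COSY were APK2A, a protein kinase, at 0.069, BIK1, a kinase of immune receptors, at 0.069, and LysoPL2, the gene called CSE above, at 0.082. For CYP82C4, whose counts were low, they were TET9, OPT2 and UGT84B1, at 0.29, 0.30 and 0.31. Counting genes without a symbol too, the nearest stood at 0.046 from COSY and at 0.19 from CYP82C4. Within 1 log2 unit lay 67 genes for F6'H1, 18870 for COSY and 3252 for CYP82C4. COSY itself spanned 1.44 log2 units over the groups, so a small difference from it was common.

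**Figure D5:**
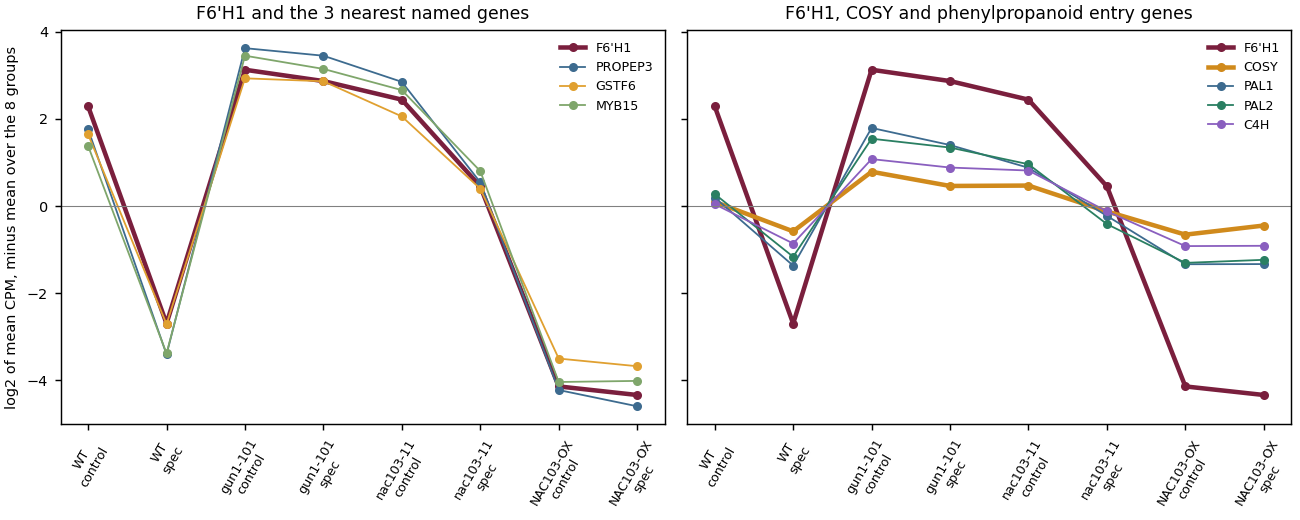
Log2 of mean CPM in the 8 groups, centred on each gene's mean, for F6'H1 with PROPEP3, GSTF6 and MYB15 (left) and for F6'H1 and COSY with PAL1, PAL2 and C4H (right), with lines joining groups only to guide the eye. All are highest in gun1-101 on control medium, and the right-hand genes span less than F6'H1.

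Markers of other tissues moved with some groups. The 8 leaf markers summed to 201 to 420 CPM in the WT control libraries and 455 to 479 CPM in the WT spectinomycin libraries. They summed to 452 to 463 and 513 to 540 CPM in gun1-101, to 241 to 245 and 375 to 388 CPM in nac103-11, and to 359 to 370 and 332 to 355 CPM in NAC103-OX. In the response of nac103-11, 7 of the 8 rose and none fell (44.8% of all genes called), and in those of gun1-101 and NAC103-OX none was called. Against WT on control medium, COSY was called in gun1-101, nac103-11 and NAC103-OX. There all 8 leaf markers were higher in gun1-101 (median log2 fold change 0.82, 40.5% of all genes called) and 3 of 8 in NAC103-OX (median 0.53, 45.3% of all genes called). In nac103-11 the leaf marker sums on control medium were 241 to 245 CPM. The WT range of 201 to 420 CPM was wide (mean 274 ± 126 CPM, SD, n = 3). Lying within it does not show that nac103-11 and WT were alike. On spectinomycin 3 of 8 were higher than in WT in gun1-101 (57% of all genes called), and 2 were higher and 1 lower in nac103-11 (26.6%). The pair of cortex markers summed to 5.50 to 9.71 and 3.28 to 4.17 CPM in WT, 3.77 to 4.33 and 2.26 to 4.13 in gun1-101, 1.68 to 2.20 and 1.46 to 1.99 in nac103-11, and 2.80 to 4.29 and 4.89 to 5.75 in NAC103-OX. The 6 root hair markers summed to 261 to 287 CPM over the gun1-101 libraries and to 270 to 420 CPM over all others, and the 8 endodermis markers to 198 to 257 CPM over all libraries. No marker was at 0 in all libraries, and the part of these markers in the coumarin gene values was not tested.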

How the data were processed

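Per the labels and the submitters' processing notes, the authors made expected counts, TPM and FPKM per gene with RSEM 1.3.1; the aligner, build, annotation and strand setting are not given in the sources used here. The deposited expected counts were rounded (98.3% were whole). The authors' deposited TPM were used for levels between genes, and their deposited FPKM as an alternative. A further 56 value columns were not used. All 24 libraries entered 1 edgeR 4.0.16 fit in R 4.3.3 (8 group means, TMM, filterByExpr with a minimum count of 10 and total of 15, robust quasi-likelihood tests, Benjamini-Hochberg at 0.05 within each of 12 comparisons). The filter kept 19567 of 24497 genes. CPM use TMM library sizes. The members and the 78 pathway and 39 marker genes were chosen with earlier results of these data known. All members are named. Of each pathway list, up to 3 called genes with the smallest p in the 3 tested responses were taken. FIT, IRT1, FRO2, CCOAOMT1, close copies and the scopolin glucosidases BGLU21, BGLU22 and BGLU23 were added, and the text names part of these. Folds against a group at 0 use a floor of 3 counts over the group. The deposited table gives no coordinates; sequences and overlaps were read by gene ID from RefSeq's TAIR10.1. The test was run first on simulated data. Alternatives were DESeq2 1.42.0, RLE size factors, no filter, only the groups compared, a replicate block, FPKM, and leaving out each library.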

Additional observations from a re-analysis of the deposited data

Results flagged for a closer look

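Responses to spectinomycin that differed between genotypes were picked out, as log2 differences with edgeR's adjusted p. The members were chosen with earlier results of these data known, and differences with an adjusted p were picked by it. These adjusted p-values are therefore a description. For F6'H1 the gun1-101 response was above that of nac103-11 by 1.73 (adjusted p = 1.92e-24) and the NAC103-OX response above that of nac103-11 by 1.79 (adjusted p = 3.34e-17). For COSY the gun1-101 response was above that of nac103-11 by 0.27 (adjusted p = 0.0114), the NAC103-OX response was above that of nac103-11 by 0.80 (adjusted p = 3.21e-10), and the gun1-101 minus NAC103-OX difference was -0.53 (adjusted p = 2.95e-05). In COSY every NAC103-OX library on spectinomycin was above every one on control medium. Every WT library on spectinomycin was below every one on control medium, and the difference of 0.88 was not tested. How many of all genes show such an order was not counted. The NAC103-OX rise of COSY was not called with DESeq2 (adjusted p = 0.0637) or in most fits without 1 NAC103-OX library. The gun1-101 minus nac103-11 call for COSY was lost without nac103-11 spectinomycin replicate 3 (adjusted p = 0.0556).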

How the results depend on the processing

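In all alternatives tried, no member's called value reversed. The number of members called in the NAC103-OX response was 1, and 0 with DESeq2, whose adjusted p for COSY was 0.0637; leaving out 1 library gave 0 to 1. For gun1-101 minus nac103-11 it was 2, and 1 to 3 with 1 library left out. Over all genes, calls in the NAC103-OX response numbered 990, and 483 to 711 with 1 library left out, and those of gun1-101 minus NAC103-OX numbered 1051, and 1611 in a fit of those groups alone. The replicate numbers did not pair the libraries: over 84 same-numbered pairs r was -0.07 to 0.08 and none passed 0.1, and 11 of 24 libraries correlated best with their own number. With the replicate block, the members called in the gun1-101, nac103-11 and NAC103-OX responses numbered 3, 3 and 1, as without it, and no other member count changed. The 3 in gun1-101 include CYP82C4, given above without a test. It left the count with no filter and in most fits that left out 1 gun1-101 library. F6'H1 in nac103-11 against WT on control medium carries no test. Its log2 fold change there was 0.15, and 0.14 in a fit of those groups alone. Without nac103-11 control replicate 1 it was 0.10. Shares from FPKM matched those from TPM (13.4% for ABCG37 in WT on control medium with either). CYP82C4, S8H and MYB72 are limited by their counts.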
